A study of Mus musculus with 4 samples.

Results

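The genes of the synaptic vesicle and of its membrane fusion machinery were examined in bulk RNA-seq of the embryonic mouse telencephalon. Members were the genes of the count table whose symbols belong to these families: synaptotagmins (Syt), syntaxins (Stx), syntaxin-binding proteins (Stxbp), VAMPs, the SNAP family, synapsins (Syn), Rab3, complexins (Cplx), SV2, synaptophysin (Syp), its relative Sypl, synaptogyrins (Syngr) and Unc13. This gave 72 of 27293 genes, and 67 of them carried enough counts to be tested. The libraries came from telencephalic tissue of C57BL/6 embryos at embryonic day 13. Of 4 libraries, 2 were labelled WT (WT 1 and WT 2) and 2 carried the genotype STINGf/f;Nestin-Cre (cKO 1 and cKO 2). In this genotype floxed STING, an adaptor of innate immune DNA sensing, is cut by a Cre recombinase under the Nestin promoter. That promoter is active in neural progenitors, and the neurons they give rise to inherit the cut gene. Nothing in the labels says whether a library holds 1 embryo or a pool, or whether libraries of a group came from separate litters, so the p-values measure the spread between these libraries, which may be in part technical. The comparison asks whether the transcript levels of these genes differ between the genotypes at this stage.

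Neurons release transmitter when a vesicle fuses with the plasma membrane. Fusion is driven by SNARE proteins: a VAMP on the vesicle zips together with a syntaxin and a SNAP-25 family protein on the target membrane. Munc13 (Unc13) helps to assemble this complex, complexins clamp and activate it, and synaptotagmins on the vesicle sense calcium. Other members of the same protein families serve the Golgi, endosomes and lysosomes of every cell. At this stage the telencephalon consists of dividing progenitors and young neurons, and most synapses form later.

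The libraries held 17209654 (WT 1), 18533391 (WT 2), 18237989 (cKO 1) and 18091688 (cKO 2) counts on genes. The members took 0.428%, 0.457%, 0.417% and 0.437% of these, so their total in cKO 2 lay between those of WT 1 and WT 2. The gene-level count of STING (Tmem173) was 20, 19, 18 and 22, a log2 fold change of 0.02 ± 0.45 (SE), so the deletion is not visible in this count and the genotypes are taken from the labels. Reads of 4 Y-linked genes summed to 2735, 0, 3002 and 1848, and the title of WT 2, the library with none, ends in nes where that of WT 1 ends in wt. Both carry the genotype label WT, what nes stands for is not given in the labels, and whether the 2 WT libraries share a genotype in all alleles was not tested. WT 1 stood apart in markers of tissue outside the brain wall: the summed level of 9 mesenchyme markers was 303 CPM (counts per 1000000, scaled for library composition) in WT 1 and 45.3 to 83.1 CPM in the other libraries, and that of 8 choroid plexus markers was 61.4 against 7.20 to 10.4 CPM. Markers of postmitotic neurons (15 genes) summed to 7312, 8491, 7791 and 7481 CPM and progenitor markers (10 genes) to 2815, 2682, 2928 and 2930 CPM. These values, and all lists of values that follow, are in the order WT 1, WT 2, cKO 1 and cKO 2. The neuron markers did not move together. Dcx (854, 1112, 1079 and 523 CPM) and Map2 (697, 715, 753 and 399 CPM) were lowest in cKO 2, whereas Tubb3 (1766, 2050, 1691 and 2271 CPM) was highest there. GABA neuron markers (7 genes) summed to 935, 915, 634 and 932 CPM, so that cKO 1 stood apart in the sum. All 7 had estimates below 0 in cKO over WT (median log2 fold change -0.24). For 2 of the 7, Gad1 (79.7, 73.3, 57.4 and 54.8 CPM) and Gad2 (116, 115, 97.5 and 99.1 CPM), both cKO libraries were below both WT libraries. For the rest cKO 1 was the lowest library and cKO 2 lay between or above the WT ones. Examples are Dlx2 (179, 175, 115 and 200 CPM) and Lhx6 (93.2, 106, 60.6 and 103 CPM). The part of these markers in the differences of the vesicle genes was not tested. In bulk tissue, fewer neurons and less RNA per neuron cannot be told apart.

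The machinery of release was transcribed at substantial levels in all 4 libraries. Levels between genes were compared as CPM per kilobase of exon (CPM per kb), and the highest of the 72 genes was Rab3a, a vesicle GTPase, at a mean of 81.0 CPM per kb. It was followed by Syt11, a synaptotagmin that does not bind calcium (71.3), Vamp2, the main vesicle SNARE (68.2), and Snap47, a SNAP-25 relative (58.6). Rab3a lies at chr8:70754679-70758677, Syt11 at chr3:88744700-88775164 and Vamp2 at chr11:69088490-69092384 (GRCm38). The order of these 4 genes is not firm, since the per-length levels of Rab3a (69.6 to 95.3), Syt11 (69.4 to 73.6) and Vamp2 (60.4 to 75.1) overlapped across libraries, and Snap47 (51.6 to 68.9) reached into the range of Vamp2. At the other end, 5 genes were too low to test. Their counts were 7, 11, 9 and 3 for Stx11, 1, 3, 5 and 4 for Stx19, 2, 2, 0 and 1 for Syt10, 0, 0, 0 and 1 for Syt8, and 0, 1, 0 and 0 for Cplx3. Syt10, Syt8 and Cplx3 stayed in every library under the limit that a count of 0 allows (3 counts, or 0.162 to 0.174 CPM), and no fold is given for any of the 5.

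**Figure D1:**
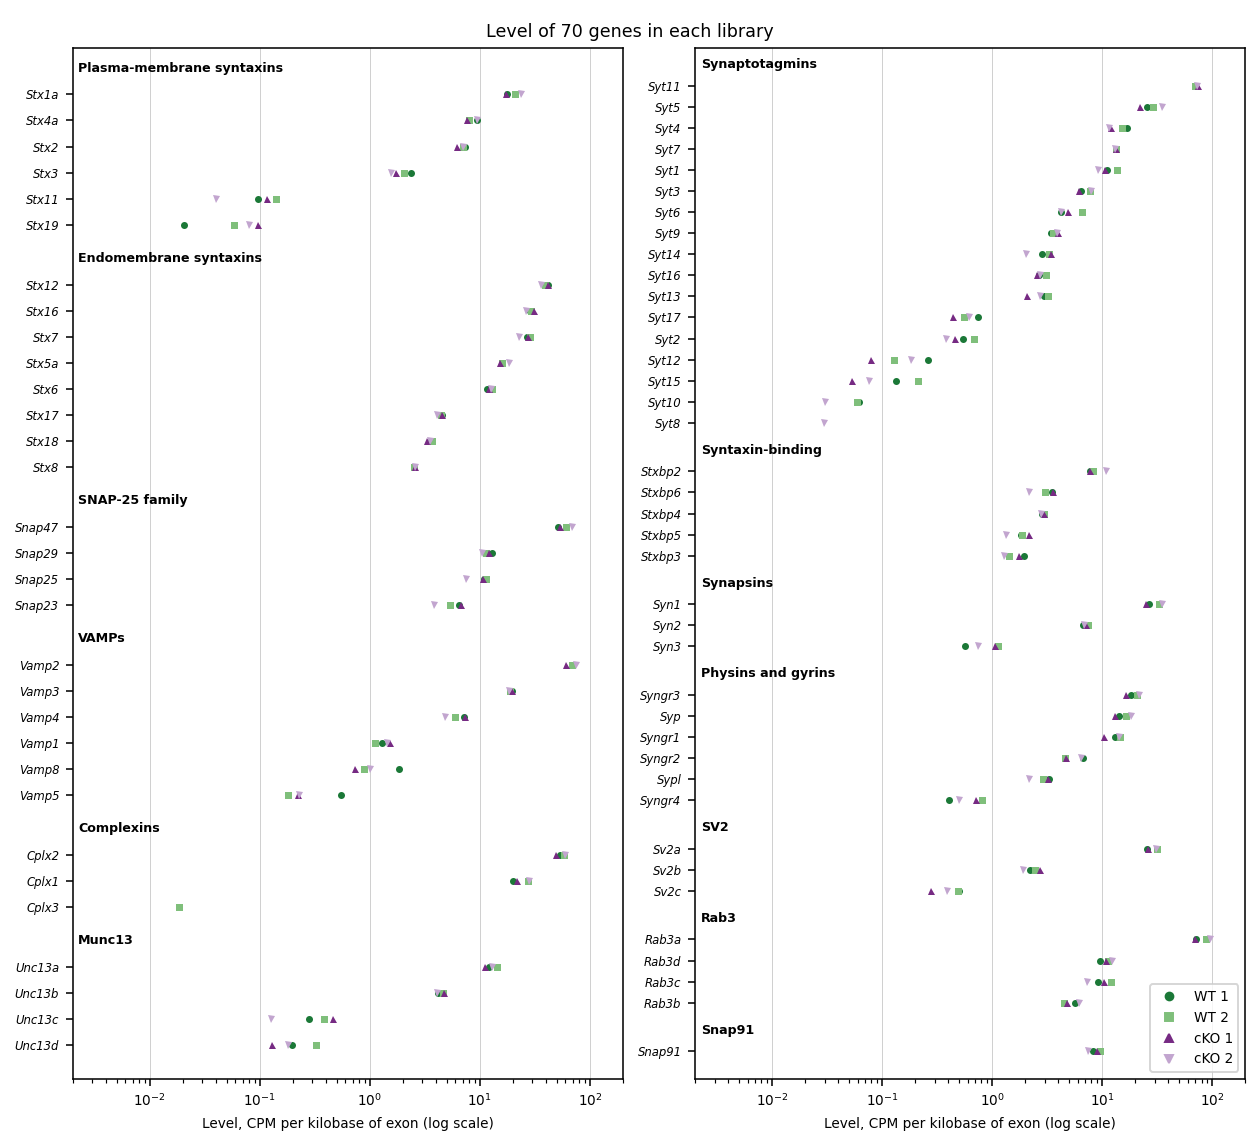
Level of 70 of the 72 genes in CPM per kilobase of exon on a log scale, grouped by role, with 1 marker per library; a library with a count of 0 is not drawn. The genes span from Rab3a, Syt11 and Vamp2 at 60.4 to 95.3 down to genes with single counts, and for most genes the 4 markers lie close together.

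In several families 1 gene carried most of the transcript per length. Among the synapsins, phosphoproteins that tether vesicles to one another, Syn1 (29.8 CPM per kb) exceeded Syn2 (7.02) and Syn3 (0.875). Sv2a, a vesicle glycoprotein, stood at 28.6 CPM per kb against 2.32 for Sv2b and 0.414 for Sv2c. Among the Munc13 priming factors, Unc13a was at 12.7, Unc13b at 4.39, Unc13c at 0.312 and Unc13d at 0.207 CPM per kb. These levels depend on the exon length used, that of all annotated exons of a gene. Unc13b has 22746 bases of exon against 12623 for Unc13a, and without division by length their means were 100 and 160 CPM. In each of these families but at its low end, every library of the higher gene lay above every library of the next one, the exception being Unc13c and Unc13d, whose ranges overlapped (0.127 to 0.459 and 0.128 to 0.325). Vamp2 (68.2 CPM per kb) was far above Vamp1 (1.34), its close relative. The plasma-membrane syntaxin Stx1a stood at 19.9 CPM per kb (libraries 17.2 to 23.9). Cplx2 (55.2) was above Cplx1 (24.5). The calcium sensor Syt1 (11.1) and the SNARE Snap25 (10.1) had lower per-length levels than Snap47 or Vamp2. Snap29 (11.8), which serves general traffic, overlapped Snap25 per length across libraries. In CPM, not divided by length, Snap25 (51.4 to 77.1) lay above Snap29 (36.3 to 44.7) in every library.

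**Figure D2:**
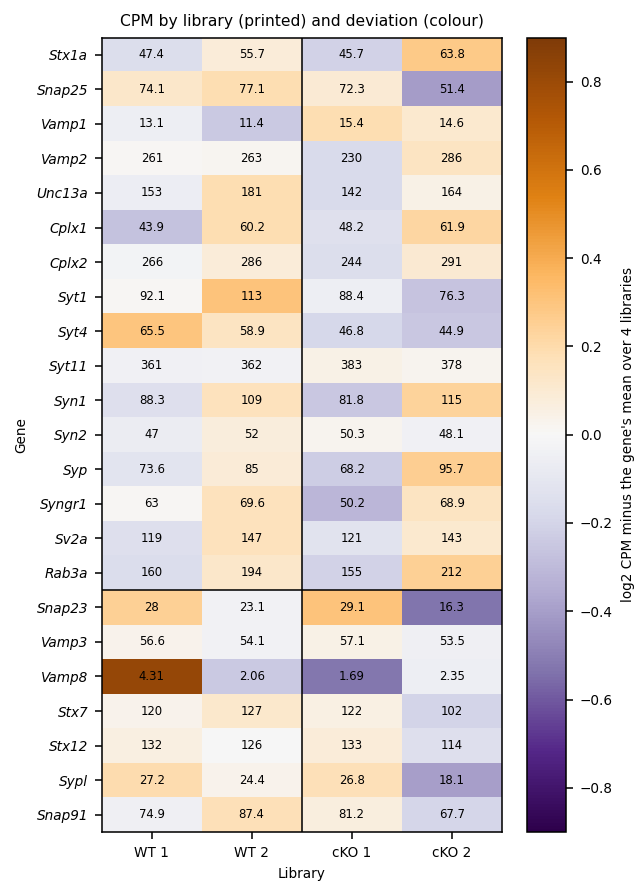
CPM of 23 genes in each library (numbers), with the colour giving the log2 deviation from the gene's mean over the 4 libraries; 16 genes of regulated release stand above the horizontal line and 7 of general membrane traffic below it. Rab3a, Syn1, Syp and Stx1a are highest in cKO 2 and lowest in cKO 1, whereas Snap25, Snap23 and Sypl are lowest in cKO 2.

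In the comparison of cKO with WT, 1 of 67 genes tested passed the study's thresholds (at least 2-fold, with p not above 0.05 before adjustment, in edgeR's quasi-likelihood test), Syt15, which was lower. That is 1.49% of the genes tested, where 0.811% of 16145 genes tested over the whole table were called, 0.669% as lower and 0.142% as higher. None reached an adjusted p under 0.05 (Benjamini-Hochberg over all genes tested), nor did any gene of the table in this test or in DESeq2, and the adjusted p of every one of the 67 genes was 1.00. At an unadjusted p under 0.05 there were 2 genes, Syt15 and Syt4 (2.99%, against 1.23% of all genes tested). With 2 libraries a group, an exact permutation test of a single gene cannot go below a two-sided p of 0.333.

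Most differences were small. The log2 fold changes (cKO over WT) ran from -1.40 to 0.29 with a median of -0.06, beside a median of -0.01 over all genes tested, and 50 of 67 estimates (74.6%) were below 0, beside 52.1% of all genes. Of the 55 genes at a mean of 10 CPM or more, 52 (94.5%) lay within 1.25-fold of equality, beside 94.3% of all genes at that level. Both cKO libraries were below both WT libraries for 11 genes (16.4%, against 10.8% of all genes tested) and above both for 4 (5.97%, against 11.0%). The median of -0.06 depends on WT 2: without that library it was -0.01. The library medians of the genes' log2 deviation were 0.01 (WT 1), 0.08 (WT 2), -0.09 (cKO 1) and -0.02 (cKO 2), so the gap between WT 1 and cKO 2 was smaller than that between the libraries of either group.

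**Figure D3:**
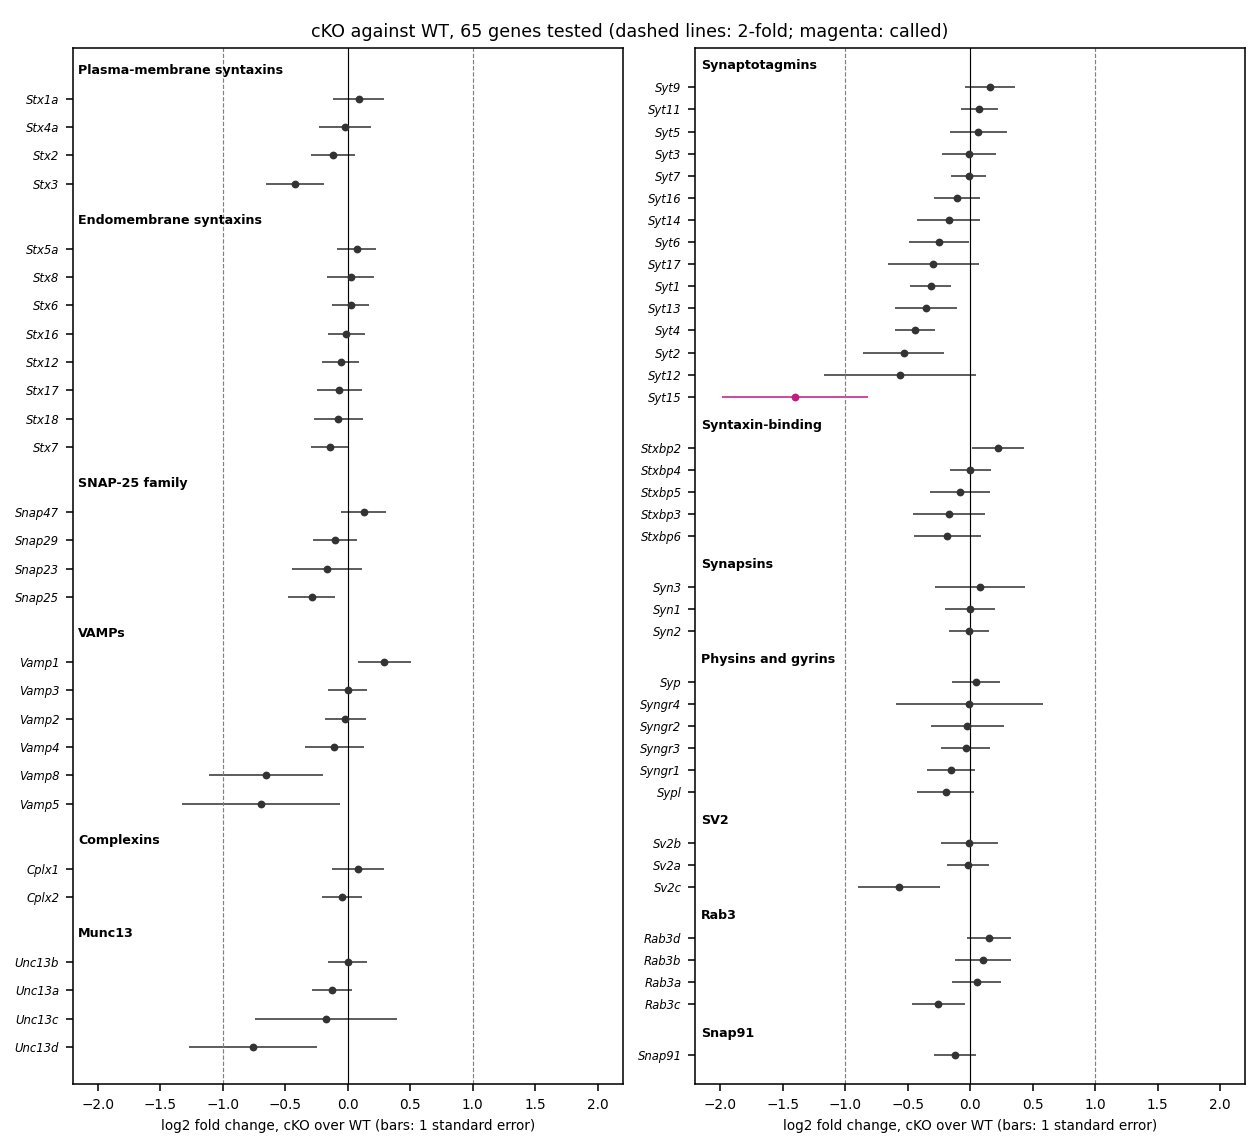
log2 fold change of cKO over WT for 65 of the 67 genes tested, grouped by role, with bars of 1 standard error and dashed lines at 2-fold. Syt15 (-1.40) is the only gene past a dashed line and the only one called, and the widest bars belong to genes with few counts such as Vamp5, Syt12 and Syngr4.

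The core SNAREs shown here had no called difference. Vamp2 stood at 261, 263, 230 and 286 CPM, a log2 fold change of -0.02 ± 0.16 (SE), with the cKO libraries on either side of the WT ones. Stx1a was at 47.4, 55.7, 45.7 and 63.8 CPM (0.09 ± 0.20), and again cKO 1 was the lowest and cKO 2 the highest library. Snap25 measured 74.1, 77.1, 72.3 and 51.4 CPM (-0.29 ± 0.19). Both cKO libraries were below both WT ones, but cKO 1 lay close to WT 1 and the estimate was -0.05 without cKO 2 and -0.56 without cKO 1. Vamp1 was the highest by fold change of all 67 genes, at 13.1, 11.4, 15.4 and 14.6 CPM (0.29 ± 0.21), with both cKO libraries above both WT libraries. Of the 5 plasma-membrane syntaxins tested, Stx3, found at the apical membrane of epithelia and in ribbon synapses, had the lowest estimate, -0.42 ± 0.23, from 13.5, 11.7, 9.93 and 8.89 CPM, and the groups did not overlap.

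For the main factors that assemble and restrain the complex the estimates lay near 0. Unc13a had 153, 181, 142 and 164 CPM (-0.13 ± 0.16), Cplx1 43.9, 60.2, 48.2 and 61.9 CPM (0.08 ± 0.21), and Cplx2 266, 286, 244 and 291 CPM (-0.05 ± 0.16). For each of these 3 genes the groups overlapped, and the second library of each group was above the first. Unc13c, a Munc13 of the cerebellum, was scattered: its counts of 43, 62, 74 and 20 gave the widest ratio between 2 cKO libraries among genes tested in this set (log2 -1.85), and its estimate of -0.18 ± 0.57 covers either direction. Unc13d, which primes lytic granules of blood cells, had counts of 16, 28, 11 and 15 and an estimate of -0.76 ± 0.51, with groups that did not overlap. The summed level of 8 blood markers was 1076, 587, 471 and 719 CPM and thus highest in WT 1, whereas Unc13d was highest in WT 2; the part of blood cells in its level was not tested.

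Of the 17 synaptotagmins 15 were tested, 12 with an estimate below 0, and their median log2 fold change was -0.25, the lowest of any role with more than 1 gene. Syt15, a family member that lacks the calcium-binding residues, was called on very few reads: 12, 20, 5 and 7 counts, or 0.887 ± 0.280 CPM in WT and 0.332 ± 0.084 CPM in cKO (SD, n = 2), a log2 fold change of -1.40 ± 0.58 (SE). Its p was 0.0428 before adjustment and 1.00 after it in edgeR's test across all genes, against an exact permutation minimum of 0.333. Both cKO libraries were below both WT libraries, but the call was lost when any 1 library was left out (log2 fold changes -1.69 to -1.03) and in DESeq2. Syt15 lies at chr14:34219595-34230421, and at a level of 0.118 CPM per kb it is the lowest of the 67 genes tested. Syt4, a synaptotagmin of dense-core vesicles with a changed calcium-binding site, was far better covered. Its counts were 1141, 1086, 857 and 803, or 65.5, 58.9, 46.8 and 44.9 CPM, and the gap between the groups exceeded the spread within either (log2 fold change -0.44 ± 0.16). Its p was 0.0234 before adjustment and 1.00 after it in edgeR's test across all genes, where an exact permutation test cannot go below 0.333, and it did not reach 2-fold. When each library's dependence on transcript GC content was taken out, the estimate was -0.23 and no longer under a p of 0.05. In every other alternative fit of all 4 libraries Syt4 stayed under that limit, DESeq2 among them (-0.44). Leaving out 1 library gave estimates of -0.36 (without WT 1), -0.50 (without WT 2), -0.47 (without cKO 1) and -0.40 (without cKO 2). Syt4 shares 566 of its exonic bases (14.5%) with a gene on the opposite strand, Gm26658, and whether counting used strand is not given in the sources used here.

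Syt1, the fast calcium sensor of release, was at 92.1, 113, 88.4 and 76.3 CPM (-0.32 ± 0.17), with the 2 groups apart but WT 1 and cKO 1 close together, and -0.15 without WT 2. Syt2, its relative in fast-firing neurons, and Syt13 also had both cKO libraries below both WT libraries (-0.53 ± 0.33 and -0.35 ± 0.25). Syt11, the most abundant synaptotagmin per length, stood at 361, 362, 383 and 378 CPM (0.07 ± 0.15), and Syt7, a slow calcium sensor, was at 101, 99.7, 101 and 98.4 CPM (-0.01 ± 0.14). Syt9 was at 13.8, 14.3, 15.9 and 15.4 CPM (0.16 ± 0.20). Both Syt11 and Syt9 had cKO libraries above the WT ones by less than 1 SE. Syt12 had 25, 13, 8 and 18 counts and scattered within both groups.

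Among proteins of the vesicle membrane and its surface, no gene was called. Syn1 measured 88.3, 109, 81.8 and 115 CPM (0.00 ± 0.20), Syp 73.6, 85.0, 68.2 and 95.7 CPM (0.05 ± 0.19), Rab3a 160, 194, 155 and 212 CPM (0.05 ± 0.19) and Sv2a 119, 147, 121 and 143 CPM (-0.02 ± 0.17). For all 4 the second library of each label was above the first, and the ranges of WT and cKO overlapped. Syn2 was even throughout, at 47.0, 52.0, 50.3 and 48.1 CPM (-0.01 ± 0.16). Syngr1, a 4-pass vesicle protein of the synaptophysin superfamily, stood at 63.0, 69.6, 50.2 and 68.9 CPM (-0.15 ± 0.19), with cKO 1 alone below the rest. Sv2c had counts of 84, 88, 49 and 68, both cKO libraries below both WT ones, and an estimate of -0.57 ± 0.33. Syn3, whose gene holds Timp3 within it on the opposite strand, sharing 1733 exonic bases, differed more within the groups (120 against 258 counts in WT, 239 against 162 in cKO) than between them (0.08 ± 0.36).

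The relatives that serve general membrane traffic were likewise uncalled. Vamp3, a SNARE of recycling endosomes, was at 56.6, 54.1, 57.1 and 53.5 CPM (0.00 ± 0.15). The endosomal syntaxins Stx12 (132, 126, 133 and 114 CPM; -0.06 ± 0.15) and Stx7 (120, 127, 122 and 102 CPM; -0.14 ± 0.15) had cKO 2 as their lowest library. So had Snap23, the ubiquitous SNAP-25 relative, at 28.0, 23.1, 29.1 and 16.3 CPM (-0.17 ± 0.28), and Sypl, the widely expressed synaptophysin relative, at 27.2, 24.4, 26.8 and 18.1 CPM (-0.20 ± 0.23). The 8 syntaxins of internal membranes had a median log2 fold change of -0.03 and a range of -0.14 to 0.07, and the closest of them, Stx8, ran from 18.1 to 18.6 CPM. Vamp8 and Vamp5, VAMPs of endosomes and of muscle and other non-neuronal cells, had counts of 75, 38, 31 and 42 and of 26, 9, 11 and 11. Both were highest in WT 1, the library with the most mesenchyme, choroid plexus, endothelium and blood marker reads, and their estimates were -0.65 ± 0.46 and -0.69 ± 0.63; without WT 2 that of Vamp8 was -1.08 and would be called, whereas without WT 1 the estimates were -0.03 for Vamp8 and 0.31 for Vamp5, so the lower values in cKO rest on WT 1. The part of those other cells was not tested. Snap91, which encodes the clathrin adaptor AP180 and carries the family name alone, stood at 74.9, 87.4, 81.2 and 67.7 CPM (-0.12 ± 0.17).

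Between the 2 libraries of the cKO genotype the differences followed base composition. For the 67 genes the log2 ratio of cKO 2 over cKO 1 rose with the GC content of the longest protein-coding transcript (Spearman rho 0.778, Pearson r 0.722 over genes, which share the 2 libraries and are not independent), and over 16098 genes of the table rho was 0.615. Between WT 2 and WT 1 rho was 0.291 for the 67 genes and 0.148 over all. The comparison of genotypes carried a relation with GC content too. For the log2 fold change of cKO over WT, rho was 0.295 for the 67 genes (Pearson r 0.097) and 0.28 over all (Pearson r 0.206). In the GC-poorest 22 genes (38.8% to 46.8% GC) cKO 2 was below cKO 1 for 21, with a median log2 ratio of -0.46. In the GC-richest 22 (53.3% to 59.2% GC) it was above for 20, with a median of 0.42. The genes of the set follow the table here: at the same limits cKO 2 was below cKO 1 for 4303 of 5249 GC-poor genes and above for 4495 of 5299 GC-rich ones.

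This composition can be read in the transcripts. Sypl and Snap23, at the GC-poor end, and Syn1 and Stx1a, at the GC-rich end, are shown by the stretch of 90 coding bases whose GC content is nearest to that of their whole transcript, from GENCODE M21 on GRCm38, 5′ to 3′, with G and C in capitals. The Sypl stretch is coding bases 172 to 261, that of Snap23 136 to 225, that of Syn1 1192 to 1281 and that of Stx1a 10 to 99, each counted from the first base of the start codon.
Sypl: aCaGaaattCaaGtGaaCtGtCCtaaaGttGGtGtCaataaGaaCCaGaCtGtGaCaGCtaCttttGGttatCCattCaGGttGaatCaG
Snap23: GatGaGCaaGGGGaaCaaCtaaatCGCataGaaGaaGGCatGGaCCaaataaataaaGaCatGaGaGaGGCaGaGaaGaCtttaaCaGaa
Syn1: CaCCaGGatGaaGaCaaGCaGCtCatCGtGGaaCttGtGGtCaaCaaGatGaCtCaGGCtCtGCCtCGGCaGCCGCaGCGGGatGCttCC
Stx1a: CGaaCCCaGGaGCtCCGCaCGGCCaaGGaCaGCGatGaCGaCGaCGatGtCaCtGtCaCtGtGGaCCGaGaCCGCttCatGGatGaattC
The whole transcripts hold 38.8%, 40.3%, 57.9% and 58.5% GC, and the log2 ratio of cKO 2 over cKO 1 was -0.57 for Sypl, -0.83 for Snap23, 0.49 for Syn1 and 0.48 for Stx1a. Genes of 1 fusion complex thus parted within a genotype: between cKO 1 and cKO 2 Stx1a was higher and its partner Snap25 (43.4% GC) lower, at a ratio of -0.49. Syt4, though GC-poor at 40.7%, did not take part, with 46.8 and 44.9 CPM in the cKO libraries. Its log2 ratio was -0.06, beside a median of -0.57 for the genes tested at 40% to 42% GC. The GC offset is fitted to each library over all genes tested, so it takes out trends between the groups as well as within them. The part of GC content in the lower level of Syt4 in cKO was not tested. The cause of the relation with GC content was not tested.

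**Figure D4:**
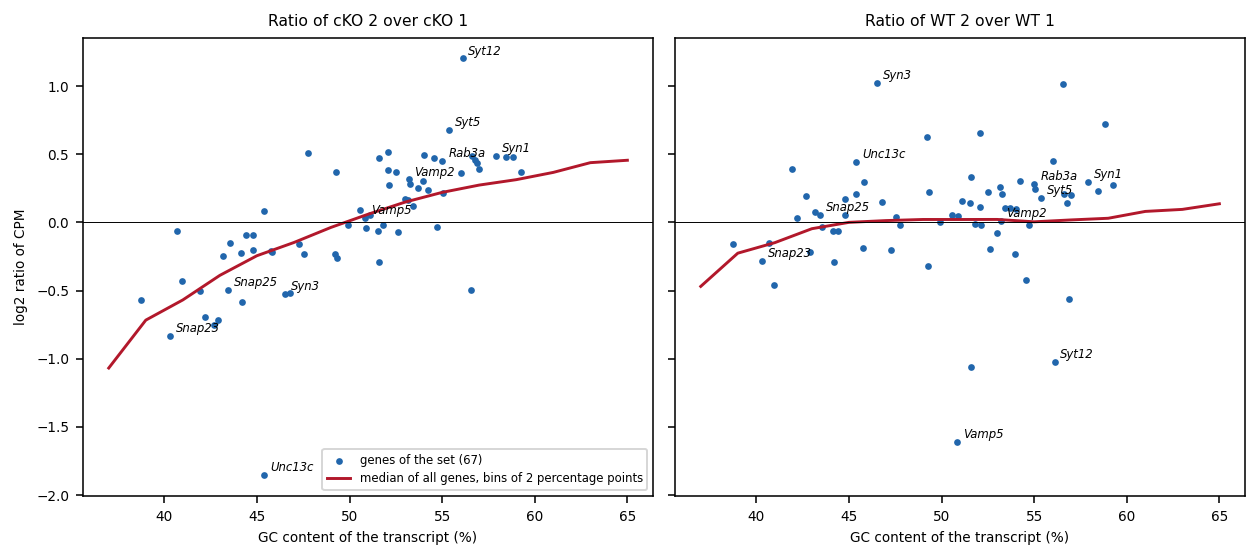
log2 ratio of CPM between the 2 cKO libraries (left) and the 2 WT libraries (right) against the GC content of the transcript, for the 67 genes tested (points), with the median of all genes tested in bins of 2 percentage points (line). On the left the points climb from Snap23 (-0.83) to Syn1 (0.49) along the line, while on the right the line stays near 0 except at the GC-poor end.

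Genes of the vesicle cycle outside these families were compared in the same fit. Of 80 listed (proton pump subunits, transmitter transporters, endocytic factors, active zone scaffolds, tethers and other SNAREs), 77 were tested and none was called, with a median log2 fold change of 0.01 (edgeR; none at an unadjusted p under 0.05 either). The cKO libraries were both under the WT pair for 5 of the 77 and above it for 3, both below the shares over all genes tested (10.8% and 11.0%). The 3 lowest of the former were Dnm3, a dynamin of vesicle scission (31.8, 36.8, 30.2 and 23.6 CPM; -0.35 ± 0.20), Bin1, an amphiphysin that bends membranes (-0.29 ± 0.17), and Scamp1, a carrier vesicle protein (-0.29 ± 0.17). The 3 above were Snapin, a SNAP-25-binding protein (0.11 ± 0.17), and the Golgi and endoplasmic reticulum SNAREs Sec22b (0.10 ± 0.15) and Gosr2 (0.08 ± 0.14), all by less than 1 SE.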

How the data were processed

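Total RNA (2 µg) of each of the 4 libraries was sequenced on an Illumina instrument. The authors deposited raw counts of reads per gene. The submitters' processing notes name Bowtie2 2.2.3, TopHat2 2.0.12, HTSeq 0.6.0 and mm9, without their roles, but 97.3% of 27232 genes found in GENCODE M21 start or end within 1 base of it, as did all 72 members, so positions were read as GRCm38. Strand and the handling of reads shared between paralogs are not given in the sources used here. Rows with no gene (11 of 27304, 0.0403%) were left out. The deposited columns of the authors' own comparison (fold changes, p-values) and a second table that repeats 2 of the libraries were not used.

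Counts were tested with edgeR 4.0.16 (R 4.3.3; TMM factors 0.9891 to 1.012, filterByExpr, quasi-likelihood F test, cKO against WT, no covariate), adjusted over all 16145 genes tested. Genes were called when they differed at least 2-fold with p not above 0.05 before adjustment, after the study's methods. The standard error is the log2 fold change divided by the square root of F. CPM are scaled by the TMM factors, and levels per length use the union of GENCODE M21 exons. The floors cover counting error only, whereas the standard errors and SDs also take in the spread between libraries. DESeq2 1.42.0, other scalings, other filters, a replicate block and leaving out each library were alternatives, and offsets for GC content and exon length were added after seeing the data. The fit was tested on simulated data.

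The members and gene lists were chosen with earlier results of these data known. Values of 2 members are not reported here, though they count in all totals. Members named were 23 listed genes of release and traffic, those called, the 5 largest differences in each direction without overlap of the groups, the highest levels per length and the 5 largest ratios within a label, and 7 more (Snap29, Stx3, Sv2b, Syngr4, Syt7, Syt13 and Unc13b) were named after their values were seen.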

Additional observations from a re-analysis of the deposited data

How the results depend on the processing

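The count of 1 member called at 2-fold and p of at most 0.05 became 0 in DESeq2, 0 where at least 10 counts in every library were required (63 members tested, Syt15 not among them) and 0 at an unadjusted p of at most 0.01, and ran from 0 to 1 when 1 library was left out. The 1 gene was Vamp8 without WT 2 and Unc13c without cKO 1 (log2 fold change -1.38), not Syt15. No member reached an adjusted p under 0.05 under any of these alternatives. The median log2 fold change of the members ran from -0.083 to -0.0065 when 1 library was left out, the latter without WT 2, and from -0.067 to -0.044 under the other alternatives. The other vesicle cycle genes called were 0 under all alternatives but 1 without WT 2 (Stxbp5l). Without cKO 1, which leaves cKO 2 as the lone cKO library and assumes it to vary like the WT group, 12 members had an unadjusted p under 0.05, as did 15.0% of all genes. The labels do not say whether same-numbered libraries were paired. Over 16145 genes their deviations correlated at 0.104, which cannot settle this, since they may also differ in tissue content and GC trend. With the replicate block 1 member was called (Syt15), no member had an adjusted p under 0.05 and the median was -0.062. Over all genes the calls went from 131 to 208, and 5 genes had an adjusted p under 0.05 in that edgeR fit. Where no filter was applied, 405 genes were called over the table, with 1 member among them, and where every library needed 10 counts, 72; DESeq2 called 65. The GC offset moved 2 of 36 named members, Syt4 and Sypl, by over 1 SE. Members under about 30 counts a library (Syt15, Syt12, Unc13d, Vamp5, Syngr4) are limited by depth, with standard errors of 0.51 to 0.63.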
